A study of Mus musculus with 8 samples.

Results

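The genes of polyamine metabolism encode the enzymes that make, interconvert and oxidise putrescine, spermidine and spermine, together with the proteins that control ornithine decarboxylase. Their members were the rows of the count table with the symbols *Odc1*, *Amd1*, *Srm*, *Oaz1*, *Azin1*, *Smox*, *Paox* and *Sat1*, 8 of 27041 rows. Each of the 8 had a mean count above 50 over the libraries, the limit for testing, and they were therefore 8 of the 11364 genes tested. RNA-seq counts came from muscle of male C57BL/6J mice aged 9 weeks. Ctrl mice carried the LSD1 L2/L2 alleles, in which exon 1 of *Kdm1a*, the gene of the histone demethylase LSD1, is floxed, and had no Cre. LSD1skm-/- mice carried the same alleles with HSA-Cre, which is active in myofibers, so that endothelial, fibroblast, immune and other cells of the muscle keep LSD1. The sample labels give the tissue as skeletal muscle, whereas the paper of the study names gastrocnemius. Of the 8 libraries that the labels describe, the 6 with counts were Ctrl replicates 1 to 4 and LSD1skm-/- replicates 1 and 2. Replicates 3 and 4 of LSD1skm-/- were not analysed here. Library totals, from replicate 1 on, were 36355538, 32616912, 36213735 and 41278769 counts for Ctrl and 30654828 and 37788092 counts for LSD1skm-/-. The labels number the libraries without naming mice, and p-values therefore measure the spread between these libraries.

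Ornithine decarboxylase, encoded by *Odc1*, converts ornithine to putrescine, and S-adenosylmethionine decarboxylase, encoded by *Amd1*, supplies the aminopropyl groups with which spermidine and spermine are built. Antizymes bind ornithine decarboxylase and send it to the proteasome, and antizyme inhibitors release it. Spermine oxidase, the acetyltransferase SAT1 and the peroxisomal oxidase PAOX run the pathway backwards, and in skeletal muscle *Odc1* and *Amd1* are known as androgen-responsive genes. LSD1 is a flavin-dependent amine oxidase related in sequence to spermine oxidase and PAOX.

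*Kdm1a* was read first, as a check of the labels. Its level, in TMM-normalized CPM (counts scaled to a common library size), was 22.9, 21.9 and 28.0 for Ctrl replicates 1 to 3, against 2.95 and 3.47 for LSD1skm-/- replicates 1 and 2. At 3.65 CPM, or 160 reads, the library labelled Ctrl replicate 4 goes against its label. The counts cover the whole gene and not the floxed exon alone. By the labels *Kdm1a* had a log2 fold change of -2.565 (SE 0.74, Benjamini-Hochberg adjusted p = 0.557 by edgeR's quasi-likelihood F-test). Leaving out that library gave -2.91 (SE 0.17, Benjamini-Hochberg adjusted p = 0.000579 by edgeR's quasi-likelihood F-test). No library was moved to another group, and the comparisons of members are given by the labels and again without the library labelled Ctrl replicate 4. Mean levels per length and correlations used all 6 libraries only.

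Among the members, *Odc1* stood out, with levels in LSD1skm-/- muscle 64.4% below Ctrl by the labels and 69.4% below it once the library labelled Ctrl replicate 4 was set aside. *Paox* was 34.8% and 36.7% lower, from few reads. The other 6 members had 95% confidence intervals that include 0 in both comparisons. By the labels, 0 of the 8 members and 0 of all genes tested (0%) had an adjusted p-value under 0.05 by edgeR's quasi-likelihood F-test and Benjamini-Hochberg. In the same test 1011 of all genes had an unadjusted p-value under 0.05, and DESeq2 gave 46 genes an adjusted p-value under 0.05, *Odc1* among them. A looser pair of thresholds, used here with edgeR, is an unadjusted p-value under 0.05 with a fold change above 1.3 or below 0.77. Its limits are those in the methods of the study, which used DESeq2 and do not say whether p was adjusted. It was passed by 2 of the 8 members, *Odc1* and *Paox*, both lower in LSD1skm-/-, and by 6.31% of all genes tested. With the p-values of DESeq2, *Odc1* passed and *Paox* did not. The LSD1skm-/- libraries lay outside the range of the Ctrl libraries for these 2 members, beside 17.8% of all genes.

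Without the library labelled Ctrl replicate 4, *Odc1* was the 1 member of 8 with an adjusted p-value under 0.05, beside 5.39% of all genes by edgeR's quasi-likelihood F-test and Benjamini-Hochberg. *Odc1* and *Paox* passed the looser thresholds, *Paox* not when some single libraries were also left out, beside 15.2% of all genes, and were the 2 members whose groups did not overlap, beside 37.7% of all genes. The genes past the looser thresholds were 1150 higher and 574 lower, and 1483 higher and 370 lower when scaled by library size only. Leaving out LSD1skm-/- replicate 1 as well gave 1154 higher and 1000 lower, so this split depended on single libraries. The median log2 fold change of the 8 members was -0.12 by the labels and -0.15 in the second comparison, against -0.008 and -0.006 over all genes tested.

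**Figure D1:**
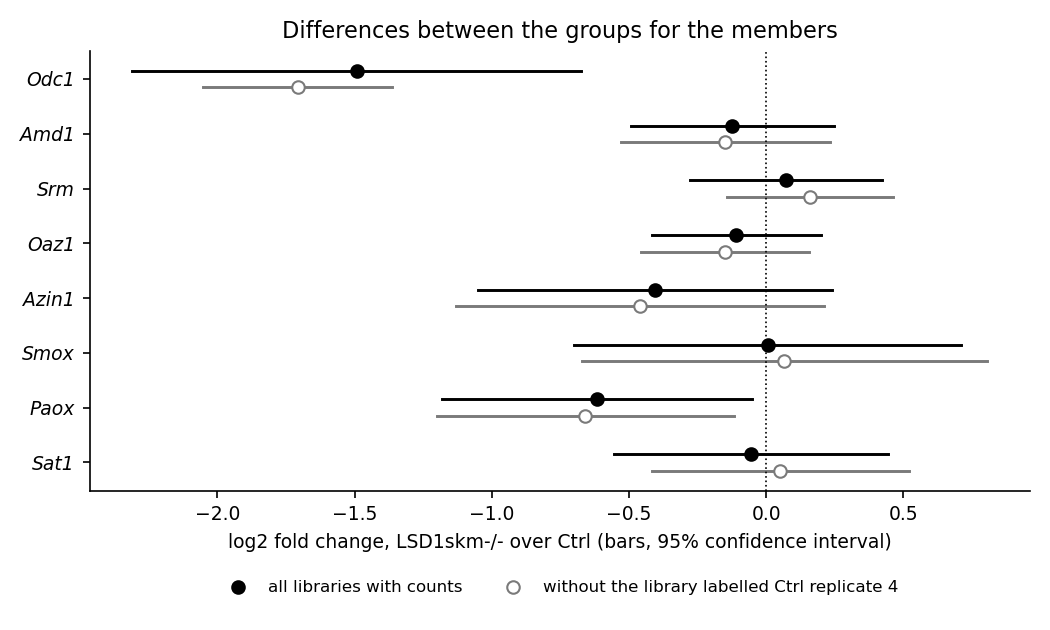
Log2 fold change of LSD1skm-/- over Ctrl (x axis) for each of the 8 members (y axis), with bars for the 95% confidence interval. Filled points use all 6 libraries and open points leave out the library labelled Ctrl replicate 4; the *Odc1* interval runs from -2.31 to -0.67 with all libraries and from -2.05 to -1.36 without that library.

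Promoters are shown for *Odc1* and for *Sms*, the gene of spermine synthase in the rest of the pathway, as genes that were lower in LSD1skm-/- muscle in both comparisons and whose entries held a motif. *Paox* was lower past the looser thresholds as well, but its entries held no motif and are not shown. The sequences run 5′ to 3′ from 250 bases before to 50 bases after a RefSeq start on GRCm38.p6, which for *Odc1* lies inside the GENCODE gene model given below and not at its first base. Entries were found for 6 of the 8 members; *Azin1* and *Srm* are named only, and the transporter gene *Slc7a2*, which was also lower, had no entry and could not be searched. Capitals mark matches to motifs searched on both strands, which were a TATA box (TATAAA), a half-site of steroid receptors (AGAACA) and an E-box (CACGTG). The NRF1 motif was searched as well, as GCGCA followed by any base and by GCGC, and was chosen after promoters were seen. The *Odc1* promoter lies on the plus strand at chr12:17544623-17544922, and the *Sms* promoter on the minus strand at chrX:157492238-157492537.
Odc1: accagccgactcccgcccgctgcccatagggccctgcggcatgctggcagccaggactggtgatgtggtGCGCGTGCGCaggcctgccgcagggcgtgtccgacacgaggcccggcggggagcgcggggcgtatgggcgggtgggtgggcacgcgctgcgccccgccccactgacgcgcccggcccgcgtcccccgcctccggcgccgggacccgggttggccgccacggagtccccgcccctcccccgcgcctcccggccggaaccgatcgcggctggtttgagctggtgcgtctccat
Sms: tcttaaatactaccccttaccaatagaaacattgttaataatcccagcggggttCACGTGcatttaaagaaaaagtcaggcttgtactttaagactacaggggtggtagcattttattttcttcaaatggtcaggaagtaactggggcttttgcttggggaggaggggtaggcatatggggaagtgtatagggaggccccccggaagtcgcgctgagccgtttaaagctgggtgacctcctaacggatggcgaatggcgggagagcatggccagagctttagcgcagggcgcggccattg
The capitals in *Odc1* are a match to the NRF1 motif on the minus strand that begins at position -181 from the start, and 78.0% of the bases are G or C. The capitals in *Sms* are an E-box at position -196, in a promoter with 50.3% G or C. A second promoter entry of *Sms* held none of these motifs. The NRF1 motif was present in 4.6% of all 32851 promoters in the table, the E-box in 7.15%, the TATA box in 13.62% and the half-site in 18.97%. Among the other members, *Oaz1* held TATAAA at position -3, so that it spans the start, and *Sat1* a half-site at position -191. No exact match to the 4 motifs was present in the promoter entries of *Smox*, *Paox* or *Amd1*. The *Amd1* entry holds TATATAA, a close variant of the TATA box that was not counted. Outside the members, *Kdm1a* held the NRF1 motif, and 1 entry of *Slc7a1* held a TATA box and a half-site. A match describes letters in these windows, and binding was not analysed here.

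*Odc1* lies on the plus strand of chromosome 12 of GRCm38 from 17544794 to 17551505 and has 12 exons in its transcript Odc1-201. Its level was 127, 130.1 and 99.5 CPM in Ctrl replicates 1 to 3, 52.3 CPM in the library labelled Ctrl replicate 4, and 38.1 and 34.6 CPM in LSD1skm-/- replicates 1 and 2. Both LSD1skm-/- libraries were below every Ctrl library, and the library labelled Ctrl replicate 4 lay between them and the other Ctrl libraries. The reads behind these levels were 4409, 4234, 3441 and 2293 in Ctrl and 1212 and 1306 in LSD1skm-/-. Mean levels were 102 ± 36.1 CPM (SD, n = 4) in Ctrl, 119 ± 16.9 CPM (SD, n = 3) without the library labelled Ctrl replicate 4, and 36.4 ± 2.445 CPM (SD, n = 2) in LSD1skm-/- muscle. By the labels *Odc1* had a log2 fold change of -1.49 (SE 0.35, Benjamini-Hochberg adjusted p = 0.557 by edgeR's quasi-likelihood F-test), and DESeq2 gave an adjusted p of 0.00273. Leaving out the library labelled Ctrl replicate 4 gave -1.71 (SE 0.15, Benjamini-Hochberg adjusted p = 0.00193 by edgeR's quasi-likelihood F-test), a 3.27-fold lower level. When each remaining library was then left out in turn, the *Odc1* log2 fold change ranged from -1.82 to -1.64 and edgeR's adjusted p from 0.000595 to 0.0346. In bulk muscle, fewer cells of a type and less RNA per cell cannot be told apart.

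Of the 50-base stretches of the *Odc1* transcript, the length of the reads, 42.2% also occur in transcripts of other genes, *Gm7993*, *Gm17709* and *Gm9115* first among them. *Gm7993* had between 0 and 2 reads per library and *Gm17709* between 1 and 6. Reads of *Odc1* that align to more than 1 place were not kept by the authors, so its level is uncertain to that extent.

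**Figure D2:**
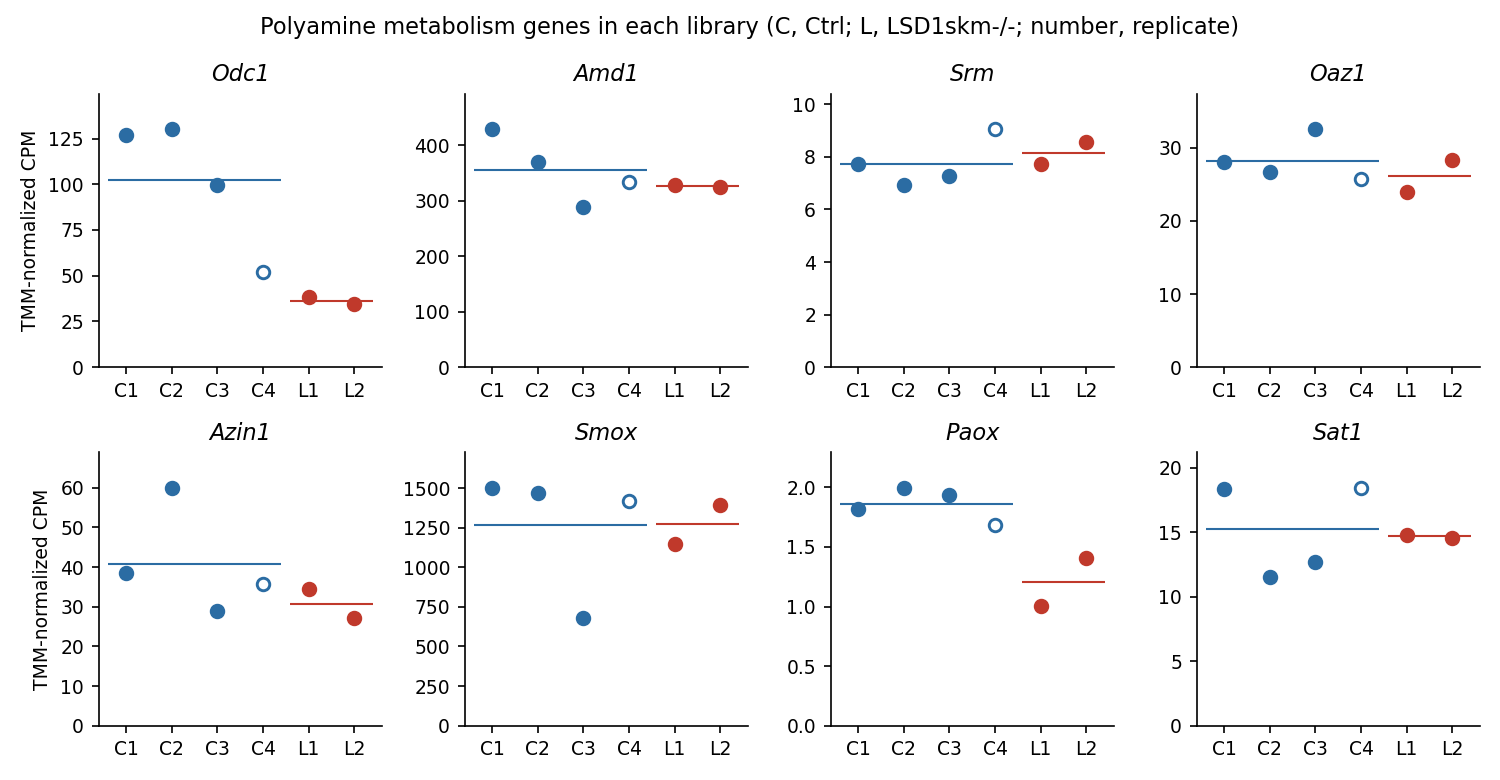
TMM-normalized CPM (y axis, from 0) of the 8 members in Ctrl replicates 1 to 4 (blue) and LSD1skm-/- replicates 1 and 2 (red). The open circle is the library labelled Ctrl replicate 4 and lines are group means; *Odc1* is at 38.1 and 34.6 CPM in LSD1skm-/- and at 52.3 CPM or above in Ctrl, and *Smox* is low in Ctrl replicate 3.

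*Amd1*, the decarboxylase that supplies the aminopropyl donor, had 428.5, 369 and 289 CPM in Ctrl replicates 1 to 3, 334.0 CPM in the library labelled Ctrl replicate 4, and 327 and 324 CPM in LSD1skm-/- replicates 1 and 2. The LSD1skm-/- libraries lay inside the Ctrl range. The log2 fold change was -0.12 by the labels and -0.15 without the library labelled Ctrl replicate 4, with 95% confidence intervals of -0.49 to 0.25 and -0.53 to 0.23 by edgeR's quasi-likelihood F-test. Of its 50-base stretches, 87.64% occur in other transcripts, mainly of the retained copy *Amd2*. *Amd2* had 40 to 68 reads per library against 10000 to 14848 for *Amd1*. Reads from shared stretches were not kept for either gene, so the *Amd2* count does not measure that loss and the *Amd1* level is uncertain. The ratio of *Odc1* to *Amd1* CPM within a library was 0.297, 0.353 and 0.344 in Ctrl replicates 1 to 3, 0.1565 in the library labelled Ctrl replicate 4, and 0.116 and 0.107 in LSD1skm-/- muscle. This ratio was thus lower in both LSD1skm-/- libraries than in any Ctrl library.

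*Srm*, which encodes spermidine synthase, had 7.73, 6.91 and 7.26 CPM in Ctrl replicates 1 to 3. It had 9.05 CPM in the library labelled Ctrl replicate 4, and 7.73 and 8.565 CPM in LSD1skm-/- replicates 1 and 2. Both LSD1skm-/- values lay inside the range of all Ctrl libraries, and that of replicate 2 lay above Ctrl replicates 1 to 3. The log2 fold change of *Srm* was 0.07 by the labels and 0.16 without the library labelled Ctrl replicate 4, with 95% confidence intervals of -0.28 to 0.42 and -0.14 to 0.46 by edgeR's quasi-likelihood F-test. *Sms*, the spermine synthase whose product is made from that of *Srm*, had 89.3, 96.5 and 82.6 CPM in Ctrl replicates 1 to 3, 54.4 CPM in the library labelled Ctrl replicate 4, and 46.6 and 50.6 CPM in LSD1skm-/- muscle. The pattern over libraries was that of *Odc1*, with both LSD1skm-/- libraries lowest and the library labelled Ctrl replicate 4 next. By the labels *Sms* had a log2 fold change of -0.73 (SE 0.22, Benjamini-Hochberg adjusted p = 0.557 by edgeR's quasi-likelihood F-test). Leaving out the library labelled Ctrl replicate 4 gave -0.88 (SE 0.11, Benjamini-Hochberg adjusted p = 0.00585 by edgeR's quasi-likelihood F-test). A pseudogene, *Sms-ps*, shares stretches with *Sms* (28.68% of them occur in other transcripts) and had 34 to 63 reads per library. Reads from shared stretches were not kept, so the *Sms* level is uncertain to that extent. The ratio of *Sms* to *Srm* CPM was 11.5, 14.0 and 11.4 in Ctrl replicates 1 to 3 and 6.01 in the library labelled Ctrl replicate 4. It was 6.03 and 5.90 in LSD1skm-/- muscle.

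The regulators of ornithine decarboxylase were *Oaz1*, the gene of antizyme 1, and *Azin1*, the gene of an antizyme inhibitor. *Oaz1* had 28.0, 26.7 and 32.55 CPM in Ctrl replicates 1 to 3, 25.7 CPM in the library labelled Ctrl replicate 4, and 24.0 and 28.4 CPM in LSD1skm-/- muscle, so the groups overlapped. Its log2 fold change was -0.11 by the labels and -0.15 without the library labelled Ctrl replicate 4, with 95% confidence intervals of -0.42 to 0.20 and -0.46 to 0.16 by edgeR's quasi-likelihood F-test. *Azin1* had 38.4, 60.0 and 28.9 CPM in Ctrl replicates 1 to 3, 35.8 CPM in the library labelled Ctrl replicate 4, and 34.5 and 27.15 CPM in LSD1skm-/- muscle. Ctrl replicate 2 was the high library and the groups overlapped. Its log2 fold change was -0.405 by the labels and -0.46 without the library labelled Ctrl replicate 4. Over single libraries left out it ranged from -0.59 to -0.16 by the labels and from -0.67 to -0.13 in the second comparison, closest to 0 without Ctrl replicate 2 in both. Without Ctrl replicate 3 in the second comparison *Azin1* passed the looser thresholds. The 95% confidence intervals were -1.05 to 0.24 and -1.13 to 0.21 by edgeR's quasi-likelihood F-test. The ratio of *Odc1* to *Oaz1* CPM was 4.54, 4.87 and 3.06 in Ctrl replicates 1 to 3, 2.03 in the library labelled Ctrl replicate 4, and 1.59 and 1.22 in LSD1skm-/- muscle. For *Oaz1*, 52.15% of the stretches occur in other transcripts, and its copy *Oaz1-ps* had 21 to 37 reads per library. Reads from shared stretches were not kept, so the *Oaz1* level is uncertain as well. An exon of *Azin1* overlaps the antisense gene *Gm49077*, which had at most 3 reads in a library, over 358 bases.

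*Smox*, which encodes spermine oxidase, had 1502 and 1470.0 CPM in Ctrl replicates 1 and 2, 678 CPM in Ctrl replicate 3, 1418 CPM in the library labelled Ctrl replicate 4, and 1149 and 1395 CPM in LSD1skm-/- muscle. Ctrl replicate 3 was the low library, and both LSD1skm-/- libraries lay inside the Ctrl range. The log2 fold change was 0.005 by the labels and 0.07 without the library labelled Ctrl replicate 4, with 95% confidence intervals of -0.70 to 0.71 and -0.67 to 0.805 by edgeR's quasi-likelihood F-test. Leaving out Ctrl replicate 3 gave -0.20, and leaving out both Ctrl replicates 3 and 4 gave -0.22. The sign of the *Smox* difference therefore depended on single libraries, and the intervals are wide on either side of 0. No 50-base stretch of *Smox* occurs in another transcript.

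*Paox*, which encodes the oxidase of acetylated polyamines, was close to the limit for testing, with 63, 65, 67 and 74 reads in Ctrl and 32 and 53 reads in LSD1skm-/- muscle. Its level was 1.82, 1.997, 1.94 and 1.69 CPM in Ctrl replicates 1 to 4 and 1.01 and 1.405 CPM in LSD1skm-/- replicates 1 and 2, both below every Ctrl library. By the labels *Paox* had a log2 fold change of -0.62 (SE 0.24, Benjamini-Hochberg adjusted p = 0.557 by edgeR's quasi-likelihood F-test). Leaving out the library labelled Ctrl replicate 4 gave -0.66 (SE 0.23, Benjamini-Hochberg adjusted p = 0.168 by edgeR's quasi-likelihood F-test). By the labels, *Paox* no longer passed the looser thresholds without Ctrl replicate 1, 2 or 3 or without LSD1skm-/- replicate 1, with log2 fold changes from -0.63 to -0.41. In the second comparison it no longer passed them without Ctrl replicate 2 or 3 or LSD1skm-/- replicate 1, with log2 fold changes from -0.65 to -0.455. DESeq2 and the fit with replicate number as a block did not pass it in either comparison. Stretches shared with other transcripts made up 28.09% of its own, and its exons overlap those of *Echs1* on the other strand over 142 bases. *Echs1* had 2583 to 3546 reads per library, and the use of strand in counting is not given in the sources used here, so the few reads of *Paox* are uncertain.

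*Sat1*, which encodes the acetyltransferase that starts polyamine export and oxidation, had 18.4, 11.55 and 12.7 CPM in Ctrl replicates 1 to 3, 18.5 CPM in the library labelled Ctrl replicate 4, and 14.8 and 14.6 CPM in LSD1skm-/- muscle. The LSD1skm-/- libraries lay in the middle of the Ctrl range. The log2 fold change was -0.06 by the labels and 0.05 without the library labelled Ctrl replicate 4, with 95% confidence intervals of -0.555 to 0.44 and -0.42 to 0.52 by edgeR's quasi-likelihood F-test.

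Levels were compared between members per kilobase of the longest coding transcript. Reads that align to more than 1 place were not kept, so members with many shared stretches may read too low. Such stretches made up 87.64% of *Amd1*, 52.15% of *Oaz1*, 42.2% of *Odc1* and 28.09% of *Paox*, against 0% of *Smox* and *Azin1*. The order of members is uncertain to that extent. For *Sat1* the transcript used has 213 coding bases in 1272. In Ctrl muscle *Smox* was highest, at 551 ± 171.5 CPM per kilobase (SD, n = 4), followed by *Amd1* at 111 ± 18.4 and *Odc1* at 46.3 ± 16.3 CPM per kilobase. *Oaz1* had 26.4 ± 2.82 CPM per kilobase, *Sat1* 12.0 ± 2.885, *Azin1* 8.38 ± 2.76, *Srm* 5.78 ± 0.70 and *Paox* 0.40 ± 0.03 CPM per kilobase. By this length the Ctrl libraries of *Odc1* overlapped those of *Oaz1*, those of *Sat1* overlapped *Azin1*, and those of *Azin1* overlapped *Srm*, whereas the other neighbours in this order did not overlap. In Ctrl replicates 1 to 3 *Odc1* was above *Oaz1*, at 57.6, 58.9 and 45.05 against 26.2, 24.9 and 30.4 CPM per kilobase. In LSD1skm-/- muscle *Odc1* was below *Oaz1*, at 17.25 and 15.7 against 22.4 and 26.5 CPM per kilobase, and in the library labelled Ctrl replicate 4 they were at 23.7 and 24.0 CPM per kilobase. This order depended on the length used. With the length of all exons joined, *Odc1* was above *Oaz1* in every Ctrl library without overlap, the lowest *Odc1* value being 15.35 in the library labelled Ctrl replicate 4 and the highest *Oaz1* value 12.7 CPM per kilobase. In LSD1skm-/- muscle *Odc1* was then at 11.2 and 10.2 against 9.37 and 11.1 CPM per kilobase for *Oaz1*. With this length *Sat1* and *Azin1* changed places in the order of Ctrl means, at 5.51 and 6.52 CPM per kilobase. In LSD1skm-/- muscle their means kept the order, at 5.30 and 4.925 CPM per kilobase.

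**Figure D3:**
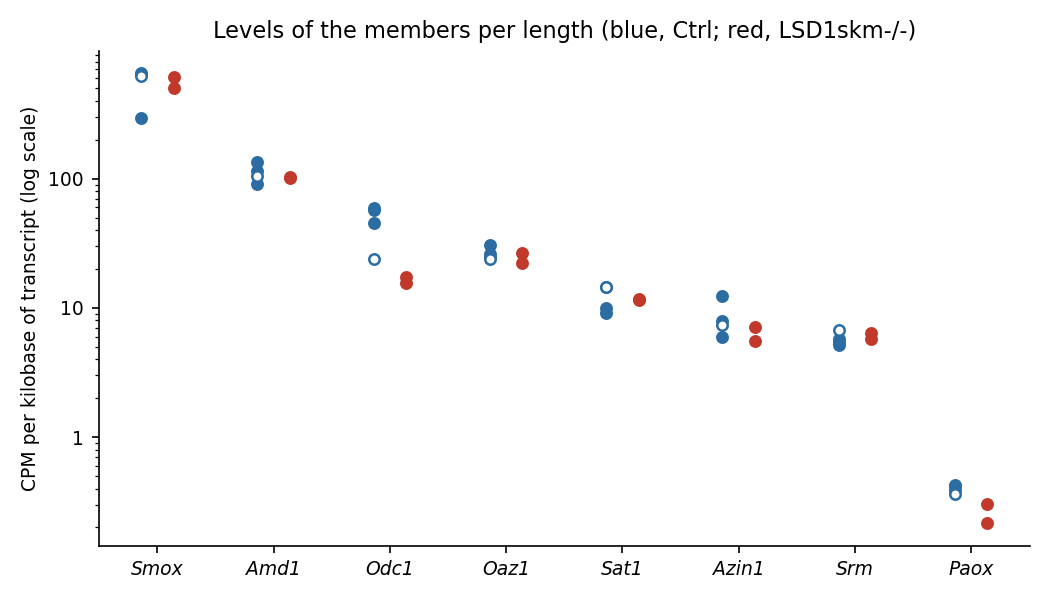
CPM per kilobase of the longest coding transcript (y axis, log scale) for the 8 members in order of their level, in Ctrl (blue, the library labelled Ctrl replicate 4 open) and LSD1skm-/- libraries (red). Ctrl means run from 551 for *Smox* to 0.40 for *Paox*, and *Odc1* is the member whose red points are lowest relative to its blue ones.

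The tested genes most like 3 of the members over the 6 libraries were named by Pearson correlation of log2 CPM, as a description in which all points share the same libraries. For *Odc1* they were *Fam50a* (r = 0.996), *Rad23b* (r = 0.994) and *Atp13a5* (r = 0.993), each lowest in the LSD1skm-/- libraries. For *Amd1* they were *Stt3b* (r = 0.993), *Tmem175* (r = 0.983) and *Inpp5d* (r = 0.979), each highest in Ctrl replicate 1 and lowest in Ctrl replicate 3. For *Smox* they were *Tmem246* (r = 0.986), *Cfp* (r = 0.981) and *C4b* (r = 0.98), each lowest in Ctrl replicate 3.

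In the rest of the polyamine pathway, 36 genes in 6 lists, 26 were tested. By the labels 1 was higher and 2 were lower past the looser thresholds (6.31% of all genes passed) and 0 had an adjusted p-value under 0.05 by edgeR's quasi-likelihood F-test and Benjamini-Hochberg. Without the library labelled Ctrl replicate 4, 4 were higher and 2 lower past the looser thresholds (15.2% of all genes passed), and 1 higher and 2 lower by adjusted p-value (5.39% of all genes). The median log2 fold change over the 26 was 0.02 and 0.005, against -0.12 and -0.15 for the 8 members. *Sms* and the cationic amino acid transporter *Slc7a2* were the 2 lower genes. *Slc7a2*, which carries arginine, ornithine and lysine, had 194, 192 and 211 CPM in Ctrl replicates 1 to 3, 88.9 CPM in the library labelled Ctrl replicate 4, and 84.7 and 75.6 CPM in LSD1skm-/- muscle. Its log2 fold change was -1.10 by the labels (SE 0.33, adjusted p = 0.557) and -1.31 without the library labelled Ctrl replicate 4 (SE 0.11, adjusted p = 0.00167), both by edgeR's quasi-likelihood F-test and Benjamini-Hochberg. The related transporter *Slc7a1* ran the other way, with 3.15, 2.765 and 3.09 CPM in Ctrl replicates 1 to 3, 5.495 CPM in the library labelled Ctrl replicate 4, and 5.06 and 5.595 CPM in LSD1skm-/- muscle. Its log2 fold change was 0.55 by the labels (adjusted p = 0.572) and 0.83 without that library (adjusted p = 0.0315), both by edgeR's quasi-likelihood F-test and Benjamini-Hochberg. The *Slc7a1* call was lost when any 1 of the 5 remaining libraries was left out, with edgeR's adjusted p from 0.0526 to 0.192, while the log2 fold change stayed between 0.75 and 0.89. An exon of *Slc7a2* overlaps the antisense gene *Gm26584* over 473 bases.

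**Figure D4:**
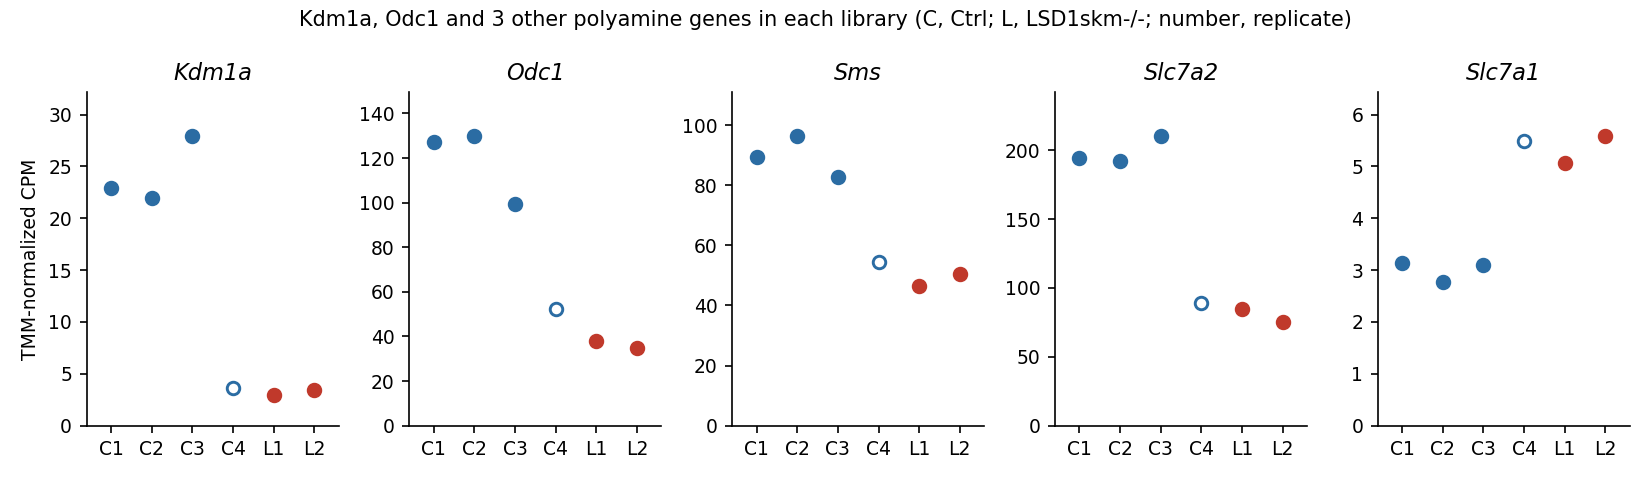
TMM-normalized CPM (y axis, from 0) of *Kdm1a*, *Odc1*, *Sms*, *Slc7a2* and *Slc7a1* in Ctrl replicates 1 to 4 (blue, replicate 4 open) and LSD1skm-/- replicates 1 and 2 (red). In each panel the library labelled Ctrl replicate 4 lies nearer to the LSD1skm-/- libraries than to Ctrl replicates 1 to 3, as for *Odc1* at 52.3 CPM.

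The other synthesis and interconversion genes included *Mtap*, which cleaves methylthioadenosine, the by-product of both aminopropyl transfers. It was higher past the looser thresholds without the library labelled Ctrl replicate 4 (log2 fold change 0.495) and not by the labels (0.40). *Eif5a2*, 1 of the 4 genes of the hypusine list, in which spermidine modifies the translation factor eIF5A, had log2 fold changes of 0.57 by the labels and 0.835 in the second comparison, and passed the looser thresholds in the latter alone. *Slc3a2*, 1 of 5 tested transport genes, passed them in both, at 0.40 and 0.485. Of *Eif5a*, *Dhps* and *Dohh*, of *Oaz2* and *Azin2* and of the 5 genes of methylthioadenosine salvage, 0 passed in either comparison. Median log2 fold changes in the 2 comparisons were -0.125 and -0.052 for other synthesis and interconversion, -0.07 and -0.11 for the 4 hypusine genes, -0.11 and -0.15 for the other antizyme and inhibitor, 0.12 and 0.28 for transport, 0.01 and -0.03 for precursor supply, and 0.10 and 0.11 for salvage.

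**Figure D5:**
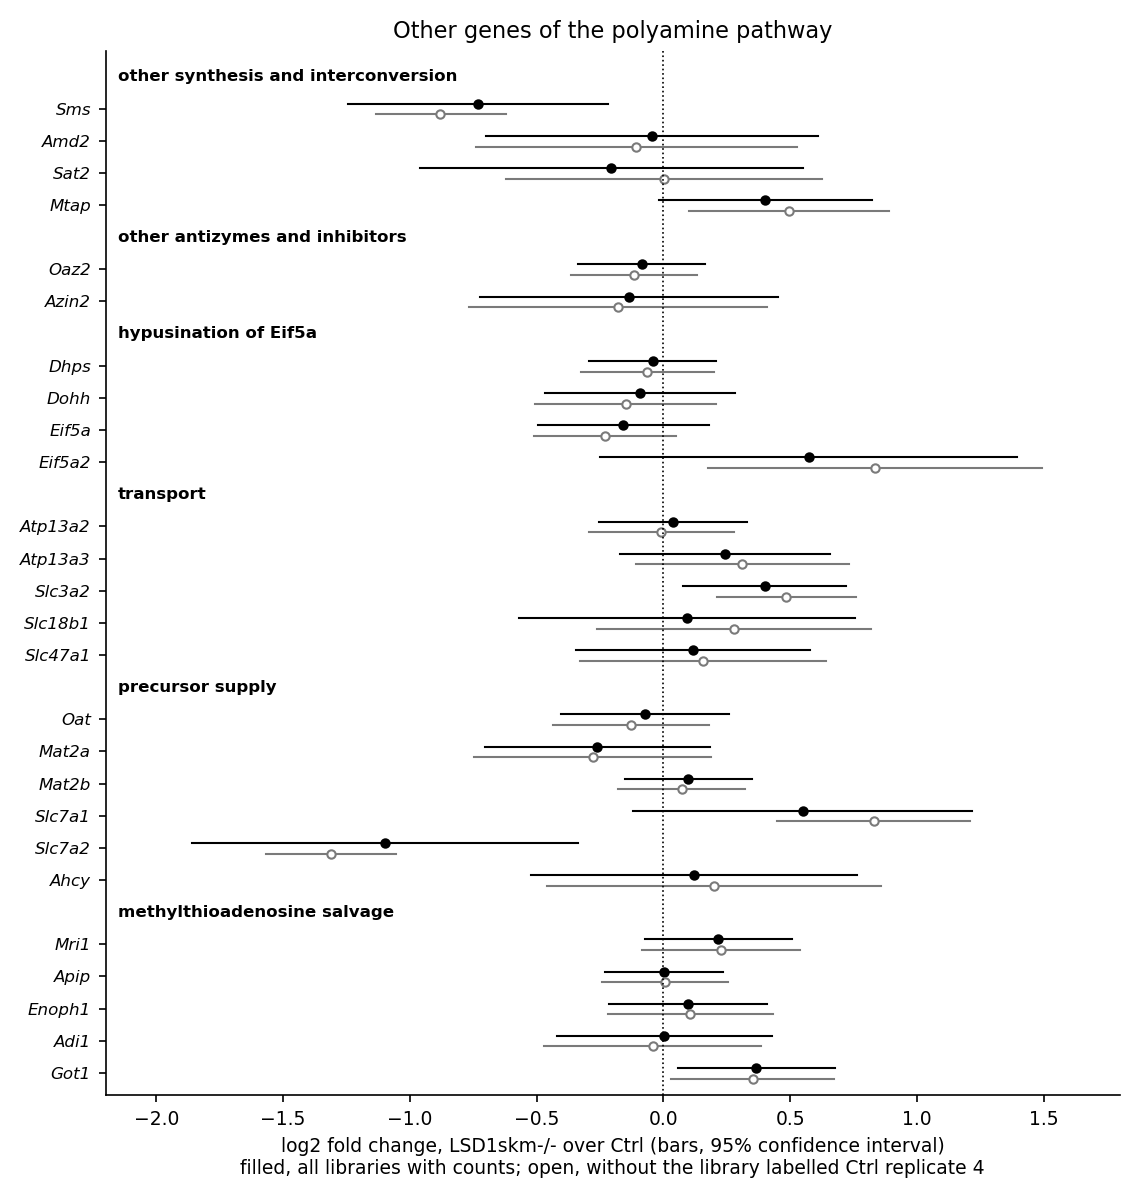
Log2 fold change of LSD1skm-/- over Ctrl (x axis) with 95% confidence intervals for the 26 tested genes of 6 other polyamine lists (y axis, grouped by list), with all 6 libraries (filled) and without the library labelled Ctrl replicate 4 (open). *Slc7a2*, at -1.10 and -1.31, and *Sms*, at -0.73 and -0.88, lie farthest to the left.

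Of 9 flavin and copper amine oxidases, the enzyme class that *Smox*, *Paox* and *Kdm1a* belong to or resemble, 7 were tested. By the labels *Kdm1a* alone passed the looser thresholds, beside 6.31% of all genes. Without the library labelled Ctrl replicate 4, *Kdm1a* and its paralog *Kdm1b* were lower past these thresholds, with log2 fold changes of -2.91 and -0.56. *Maob* and *Lox* were higher past them, at 0.435 and 0.655, beside 15.2% of all genes that passed in either direction. In the second comparison *Kdm1a* alone of these amine oxidases had an adjusted p-value under 0.05 by edgeR's quasi-likelihood F-test and Benjamini-Hochberg. *Kdm1a* is the deleted gene and the one by which the library left out was chosen. Its passing is therefore not a result about this enzyme class. Of 8 transcriptional regulators known for polyamine genes, 0 passed the looser thresholds in either comparison, and their median log2 fold change was -0.06 and -0.11. Single genes ranged from -0.725 to 0.37 by the labels and from -0.69 to 0.35 in the second comparison.

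The tissue label was read against markers. The 5 myofiber markers summed to between 124600 and 153300 CPM. *Myh4*, the highest of them on average, had 52770, 51210 and 56930 CPM in Ctrl replicates 1 to 3, 39070 CPM in the library labelled Ctrl replicate 4, and 39700 and 35160 CPM in LSD1skm-/- muscle. It was lower past the looser thresholds in both comparisons, and the library labelled Ctrl replicate 4 lay near the LSD1skm-/- libraries, as for *Odc1*. The other 4 myofiber markers did not pass in either comparison, with log2 fold changes from -0.15 to 0.28 by the labels and from -0.175 to 0.215 in the second comparison. Other cell and fiber markers differed between libraries and were set beside *Odc1* and *Smox*. The 6 adipocyte markers, led by *Cfd*, summed to 97.4, 98.1 and 6.07 CPM in Ctrl replicates 1 to 3, 137 CPM in the library labelled Ctrl replicate 4, and 2.92 and 8.75 CPM in LSD1skm-/- muscle. Past the looser thresholds, 5 of the 5 tested adipocyte genes were lower in both comparisons. Over all genes tested, 6.31% passed these thresholds by the labels and 15.2% in the second comparison. Ctrl replicate 3, with adipocyte markers as low as in LSD1skm-/- muscle, had 99.5 CPM of *Odc1*, and the library labelled Ctrl replicate 4, with the highest, had 52.3 CPM. *Smox* was lowest in Ctrl replicate 3 and had 1149 and 1395 CPM in the LSD1skm-/- libraries, which were also low in adipocyte markers. The 6 slow fiber markers summed to 990, 818 and 1671 CPM in Ctrl replicates 1 to 3, 933 CPM in the library labelled Ctrl replicate 4, and 311 and 652 CPM in LSD1skm-/- muscle, so both were below all Ctrl libraries, as for *Odc1*. Past the looser thresholds, 5 of the 6 slow fiber genes were lower in both comparisons, all but *Myl3*, which had the highest mean of the 6 over all libraries. The 5 blood genes, led by *Hbb-bs*, summed to 28.1 to 52.1 CPM in Ctrl and to 63.95 and 65.65 CPM in LSD1skm-/- muscle, and 4 were higher past the looser thresholds by the labels and 5 in the second comparison.

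The 6 fibroblast markers summed to 457, 429 and 474.5 CPM in Ctrl replicates 1 to 3, 697 CPM in the library labelled Ctrl replicate 4, and 606 and 716 CPM in LSD1skm-/- muscle, so the libraries low in *Odc1* were high in these markers. Past the looser thresholds, 2 of the 6 were higher by the labels and 5 in the second comparison, beside 6.31% and 15.2% of all genes. *Dcn*, the highest of them on average, was at 219.6 CPM in the library labelled Ctrl replicate 4, inside the range of the other Ctrl libraries, so the high sum there came from other genes of the list. The endothelial markers, led by *Cdh5*, summed to 183 to 235 CPM in Ctrl and 162 and 164 CPM in LSD1skm-/- muscle. Their log2 fold changes were negative for 5 of the 6 and positive for 1 in both comparisons. Past the looser thresholds, 1 endothelial marker, *Cdh5*, was lower by the labels and 0 in the second comparison. The immune markers, led by *C1qa*, ranged from 14.95 to 37.5 CPM in Ctrl, with 21.0 and 34.05 CPM in LSD1skm-/- muscle, and *Cd3e* was at 0 in Ctrl replicate 3 and in both LSD1skm-/- libraries. The 6 Schwann cell markers summed to 118.6, 44.95 and 101.4 CPM in Ctrl replicates 1 to 3 and 158.7 CPM in the library labelled Ctrl replicate 4. They summed to 54.6 and 92.5 CPM in LSD1skm-/- muscle. Of the 4 Schwann cell markers tested, 0 passed the looser thresholds in either comparison. The part of the cell and fiber markers in the levels of *Odc1*, *Paox* and *Smox* was not tested.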

How the data were processed

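RNA-seq counts of muscle from Ctrl and LSD1skm-/- mice were used as the authors deposited them, as whole-number counts of reads per gene without normalization. Their reads were single-end and 50 bases long. After removal of adapter dimers these were mapped to mm10, and those with a unique alignment were kept. The methods name htseq-count at the mapping step and HOMER for quantification, and no aligner. Libraries were made with a kit that marks strand, and the use of strand in counting is not given in the sources used here. No 2 libraries were repeats of each other within sampling noise, with a chi-square over its degrees of freedom of 32.9 to 127 between pairs. The library labelled Ctrl replicate 4 had 67.8 to 95.4 against the other Ctrl libraries, and 32.9 and 46.5 against LSD1skm-/- replicates 1 and 2.

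Testing was limited to genes averaging more than 50 counts across the 6 libraries and used edgeR 4.0.16 in R 4.3.3 (TMM scaling, quasi-likelihood test, genotype as the only term, Benjamini-Hochberg adjustment over 11364 genes), with DESeq2 1.42.0 as an alternative. The scripts were tested on simulated data. Standard errors came from the fold change and the F statistic. Correlations used log2 CPM with a prior count of 2. The members and lists were chosen with earlier results of these data known. Named genes were the 8 members, *Kdm1a*, genes of the lists past the thresholds of unadjusted p and fold change in either comparison, the list genes of highest level as examples, and the 3 genes most like *Odc1*, *Amd1* and *Smox*. Gene positions and shared stretches were from GENCODE vM21 on GRCm38, and promoters from RefSeq. Other scalings, filters and tools, a replicate block and each library left out were tried.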

Additional observations from a re-analysis of the deposited data

Results flagged for a closer look

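In 3 of 18 results looked at among the 4 Ctrl libraries, 1 library was far from the rest on the log2 CPM scale, measured as its gap to the nearest library over the range of the group. *Smox* was low in Ctrl replicate 3, with a gap of 0.928 of the range (678 CPM, against 1418 to 1502 CPM in the other Ctrl libraries). *Kdm1a* was low in the library labelled Ctrl replicate 4, with 0.879 of the range (3.65 CPM, against 21.9 to 28.0 CPM), and so was *Slc7a2*, with 0.893 of the range (88.9 CPM, against 192 to 211 CPM). Chance marks about 1 in 20 independent groups in this way, a rate that does not apply to these 18. They share libraries, and some were named for passing thresholds with or without the library labelled Ctrl replicate 4. The low *Kdm1a* level in that library was also known beforehand. *Odc1*, at 0.706 of the range with the same library low, was not marked.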

How the results depend on the processing

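By the labels, the log2 fold change of *Odc1* was negative in every alternative and passed an adjusted p-value of 0.05 with no filter beyond 1 count (-1.504), with DESeq2 (-1.50), with the replicate number as a block (-1.825) and without the library labelled Ctrl replicate 4; over libraries left out it ranged from -1.707 to -1.355. *Smox* changed sign with DESeq2's size factors, upper-quartile scaling and DESeq2 (each -0.002), with no filter (-0.005), with the block (-0.231) and over libraries left out (-0.202 to 0.133, with -0.141 without LSD1skm-/- replicate 2). *Sat1* changed sign with the block (0.011) and over libraries left out (-0.171 to 0.051, with 0.045 without Ctrl replicate 1), and *Srm* (-0.003 to 0.160) and *Oaz1* (-0.236 to 0.003) did so over libraries left out. Members with an adjusted p-value under 0.05 were 1 with no filter, DESeq2 or the block, and 0 to 1 over libraries left out; members past the looser thresholds were 1 with DESeq2 or with more than 50 counts in every library, which leaves *Paox* untested, and 1 to 2 over libraries left out. With no filter and with the block the number stayed at 2, but *Paox* no longer passed and *Azin1* did. All genes by adjusted p-value were 149 with no filter, 46 with DESeq2, 632 with the block and 0 to 612 over libraries left out (6 without Ctrl replicate 3), and past the looser thresholds 1909 with no filter, 1668 with the block and 340 to 1724 over libraries left out. Without the library labelled Ctrl replicate 4, alternatives chosen after seeing the data left *Odc1* past the adjusted threshold in each. *Smox* changed sign with the block (-0.227) and over libraries left out (-0.221 to 0.244, with -0.083 without LSD1skm-/- replicate 2), and *Sat1* over libraries left out (-0.078 to 0.279, with -0.022 without Ctrl replicate 3). *Azin1* passed the adjusted threshold with no filter (-0.466), which made 2 members. Members past the looser thresholds were 3 with no filter, 2 with the block or without Ctrl replicate 3 (*Azin1* in place of *Paox* in both), 1 with DESeq2 or with more than 50 counts in every library, and 1 to 2 over libraries left out. All genes by adjusted p-value were 1894 with no filter, 1056 with DESeq2 and 143 to 504 over libraries left out, and 3127 past the looser thresholds with no filter. Same-numbered libraries shared only a number (correlation of deviations -0.233 and -0.033 for replicates 1 and 2), and the block fit compares replicates 1 and 2 alone, since replicates 3 and 4 have counts in Ctrl only. Where 1 LSD1skm-/- library was left, it was assumed to vary like the Ctrl libraries. The cause of these changes was not tested. Depth limits *Paox*, with 32 to 74 reads per library, more than the other members.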
